A study of Rattus norvegicus with 107 samples.

Results

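Transcript levels of the rat colon were compared between late and middle suckling, postnatal day (PND) 15 against PND 10. The comparison used 12 samples, 6 colon samples of PND 15 and 6 of PND 10, chosen by their labelled tissue and age alone from the 53 colon and 54 brain samples of the series. The series followed both tissues of Sprague Dawley rats over 9 ages, from embryonic day 21 to PND 22, to relate the sialic acid of milk to the genes that use it. Both colon groups came from untreated, suckling Sprague Dawley pups of litters evened out at birth, with pups moved between dams, and the gut was rinsed with PBS before freezing. Brain samples of the same ages, 6 of PND 15 and 6 of PND 10, served as the tissue set against colon. Sex, litter and any pooling of pups were not given in the sources used here, nor whether a colon and a brain sample shared a pup, so that the p-values below measure only the spread between these samples.

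The colon of the newborn rat resembles small intestine for a short time: it carries villus-like folds, and its surface cells hold brush border enzymes and take up intact milk components. During suckling and weaning these features give way to flat mucosa, whose colonocytes absorb salt and water with carbonic anhydrases, chloride-bicarbonate exchangers and sodium-proton exchangers. Over the same weeks lymphoid tissue, enteric nerves and detoxifying enzymes of the gut wall mature.

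RNA was read on RatRef-12 BeadChips, microarrays with 22523 probes, whose signals were brought to 1 common distribution (quantile normalization) and compared on the log2 scale. A change is the mean log2 signal of PND 15 minus that of PND 10, and a probe was called when its adjusted p from limma (Benjamini-Hochberg) was under 0.01. A probe counts as detected at a detection p under 0.05, which corresponds to a normalized signal of 66.3 to 69.3, and 11079 to 12091 probes per sample were detected in PND 15 colon against 11111 to 11911 in PND 10 colon. Before normalization 5 of the 12 arrays were bright, 3 of PND 15 and 2 of PND 10 (medians of 91.1 to 97.9), and 7 were dim, 3 of PND 15 and 4 of PND 10 (45.0 to 58.4). All 437 probes called below changed in the same direction among the bright arrays and among the dim arrays. They were picked from these same 12 arrays, so this agreement was nearly fixed beforehand and does not test the part of brightness. With the array median as a covariate, a fit added after the data were seen, 421 probes were called, 397 of them among the 437. Correlations of log2 signals over all probes were 0.979 to 0.993 within PND 15, 0.981 to 0.991 within PND 10 and 0.974 to 0.990 between the ages. All 8 measured markers of colon epithelium were detected in all 12 samples. The 3 measured markers of small intestine stayed near the detection limit, with summed signals of 175 to 195 in PND 15 and 167 to 199.6 in PND 10, and none was detected in every sample of either age.

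Of the 22523 probes, 437 (1.94%) were called, of which 292 rose (1.3%) and 145 fell (0.644%) in PND 15 relative to PND 10. Among probes with a gene symbol, 110 genes rose and 117 fell. Most changes were small, since 37 called probes changed more than 2-fold and 177 more than 1.5-fold. A fit of the 12 samples alone, in which the other ages lend no estimate of spread, called 211 probes. The 6 samples of PND 15 lay above all 6 of PND 10 for 267 probes (1.19%) and below them for 213 (0.946%), which makes 480 without overlap (2.13%). The number of falls depended on single samples: it was 61 without PND 15 replicate 6, 82 without PND 15 replicate 5, 91 without PND 15 replicate 4, 76 without PND 10 replicate 1 and 91 without PND 10 replicate 3. The count of all calls was 268 without PND 15 replicate 6 and 296 to 483 without any other single sample.

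Carbonic anhydrase 1 (Car1, chr2:88550681-88593454, GRCr8), which interconverts carbon dioxide and bicarbonate in mature colonocytes, showed the largest rise of a named gene. Its normalized signals were 1405, 1029.8, 567, 576, 1219 and 1527 in PND 15 colon, against 224, 104, 119.6, 141, 138 and 269.7 in PND 10 colon. The groups were far apart, with the lowest PND 15 samples (replicates 3 and 4) above the highest PND 10 samples (replicates 6 and 1). The rise was 2.65 ± 0.20 on the log2 scale (SE, n = 6 each, with limma adjusted p = 5.8e-14), or 6.25-fold. The exact permutation test gave p = 0.00216, the smallest that 6 against 6 samples allow. Every gene without overlap has this p. The largest rises were picked among genes without overlap, so it adds no separate support. The mean signal of Car1 was 90.0 on PND 7, 166 on PND 10, 1054 on PND 15 and 17125 on PND 22. The step to PND 15 was thus an early part of a longer rise.

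Other transporters and enzymes of the absorbing colonocyte were higher in PND 15 as well. The membrane-bound Car4 (chr10:70325102-70333916) had signals of 407, 973 and 1645 (lowest, median and highest) in PND 15 against 182, 384 and 897 in PND 10, and rose by 1.19 ± 0.25 (SE, n = 6 each; limma adjusted p = 0.0019), although the groups overlapped. Slc26a3, the chloride-bicarbonate exchanger of the colon, had 234, 359.8 and 547 in PND 15 against 156, 187 and 289 in PND 10, and rose by 0.84 ± 0.19 (limma adjusted p = 0.0045). The sodium-proton exchanger Slc9a2 had 462, 559 and 645 in PND 15 against 312, 349 and 453 in PND 10, without overlap, and rose by 0.63 ± 0.11 (limma adjusted p = 1.7e-04). The zinc importer Slc39a4, chosen after its values were seen, had 195, 257 and 368 in PND 15 against 104, 144 and 221 in PND 10, and rose by 0.84 ± 0.18 (limma adjusted p = 0.0017). At PND 22 the mean signals were higher again, at 4728 for Car4, 1667 for Slc26a3, 1420.3 for Slc9a2 and 572 for Slc39a4.

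Leaving out 1 sample ended some of these calls. Car4 lost its call without PND 15 replicate 1 or 6 or PND 10 replicate 2 (highest adjusted p from limma 0.0146), and Slc39a4 without PND 15 replicate 5 or PND 10 replicate 4 (0.0109). Slc26a3 lost it without PND 15 replicate 2, 4 or 6 or any of PND 10 replicates 1 to 5 (0.0314), and also under 75th percentile scaling. Another background correction and a fit of the 12 samples alone each ended the calls of Car4, Slc39a4 and Slc26a3. That of Car4 was also lost with a replicate block in that fit. Over all settings the highest adjusted p from limma was 0.0971 for Car4 and 0.0197 for Slc39a4. Car1 and Slc9a2 kept their calls under every alternative.

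Most members of the same pathways did not pass the test. Of 11 measured carbonic anhydrases 2 rose and none fell, with a median change of 0.11, and of 22 genes for salt and water transport 2 rose and none fell, with a median of 0.09. The median over all named genes was −0.01, with 1.70% called. The subunits of the epithelial sodium channel had changes of 0.39 (Scnn1a), 0.33 (Scnn1b) and 0.20 (Scnn1g), with limma adjusted p of 0.276, 0.67 and 0.457. Car2, the broadly expressed cytosolic carbonic anhydrase, averaged 6717 ± 839.9 in PND 15 and 5379 ± 601 in PND 10 (SD, n = 6 each), a change of 0.32 that did not pass (limma adjusted p = 0.262).

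**Figure D1:**
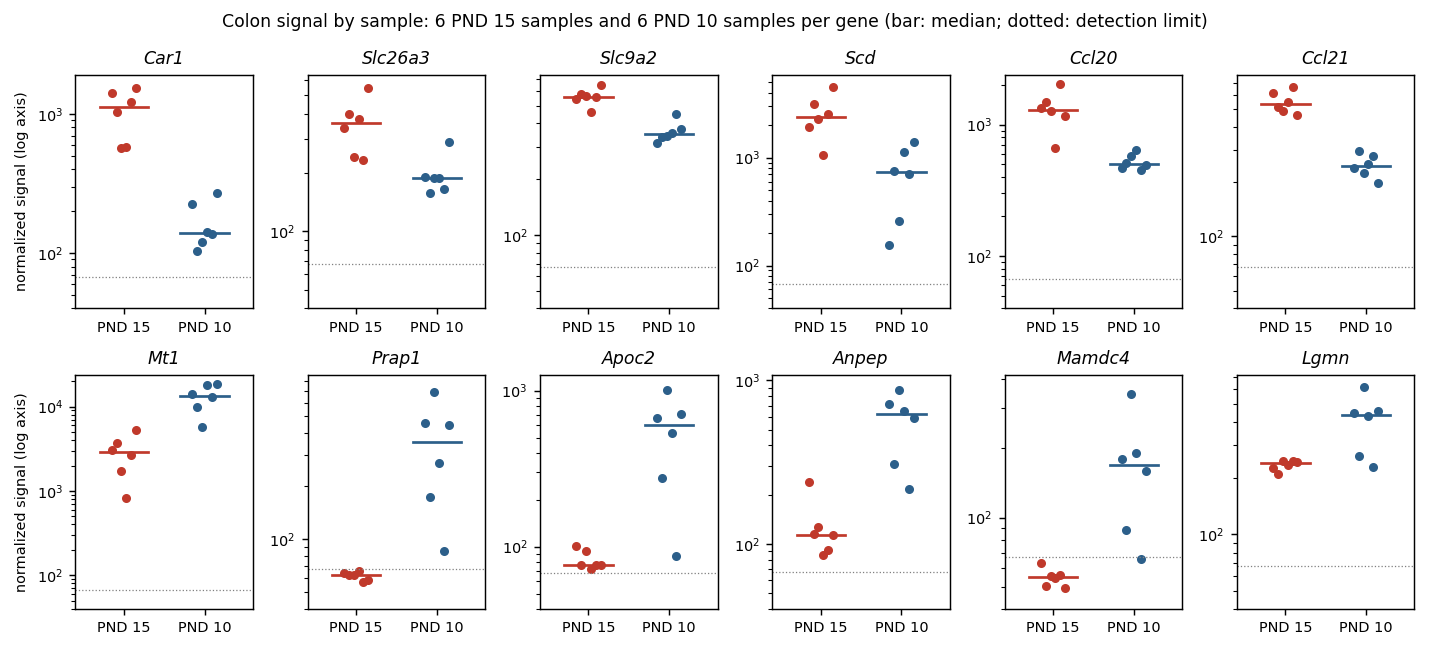
Normalized signal (log axis) of 12 genes in each colon sample, with the 6 PND 15 samples left and the 6 PND 10 samples right in each panel. Bars are medians and the dotted line is the signal at the detection limit, and a reader should see that Car1, Slc9a2, Ccl20, Ccl21, Mt1, Prap1 and Mamdc4 do not overlap between the ages, while Slc26a3, Scd, Apoc2, Anpep and Lgmn do.

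A few genes known from the absorbing surface of the neonatal gut fell, while most members of their lists were not called. Prap1 (proline-rich acidic protein 1, chr1:204312723-204316519), a secreted and lipid-binding protein of gut epithelium, had signals of 63.8, 62.7, 62.5, 65.9, 56.8 and 58.3 in PND 15 colon, against 458, 173, 693, 271, 85.4 and 447 in PND 10 colon. It was detected in 0 of 6 PND 15 samples and in 6 of 6 PND 10 samples. It was thus at least 4.25-fold lower in PND 15, a bound that sets the mean log2 signal of PND 10 against the lowest detected signals of the PND 15 arrays (limma adjusted p = 1.9e-04). At PND 7 its mean signal had been 1161, so PND 10 lay on a slope already under way.

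Apoc2, apolipoprotein C-II, the cofactor of lipoprotein lipase, had 102, 76.3, 94.3, 71.7, 76.4 and 76.4 in PND 15 against 666, 276, 1006, 532, 86.7 and 704 in PND 10. It fell by 2.38 ± 0.40 on the log2 scale (SE, n = 6 each; limma adjusted p = 7.3e-05), and the only PND 10 sample within the PND 15 range was replicate 5. Its mean signal was 2266 on PND 7, 545 on PND 10, 82.8 on PND 15 and 92.9 on PND 22. Anpep, the brush border aminopeptidase N, had 84.8, 113 and 237 (lowest, median and highest) in PND 15 against 216, 619.8 and 876 in PND 10, and fell by 2.06 ± 0.35 (limma adjusted p = 7.3e-05).

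2 genes of the endocytic route fell with them. Mamdc4, known as endotubin, an apical endosome protein of neonatal enterocytes, was chosen after its values were seen. It was detected in 0 of 6 PND 15 samples (49.4 to 63.5) and in 5 of 6 PND 10 samples (65.7 to 346). Its fall was called (limma adjusted p = 0.0027), with no size given here, since both ages held undetected signals. Lgmn, the lysosomal protease legumain, had 211, 239.7 and 247 in PND 15 against 228, 437 and 616 in PND 10 and fell by 0.71 ± 0.18 (limma adjusted p = 0.0094). A probe without a gene symbol in the annotation, ILMN_1368735, also chosen after its values were seen, had the largest fall of all called probes, with 61.2 to 108 in PND 15 against 198 to 1987 in PND 10 and a change of −3.20 ± 0.50 (limma adjusted p = 1.7e-05). The fall of Lgmn lost its call without any single PND 15 sample and without PND 10 replicate 1, 3, 4 or 6 (highest adjusted p from limma 0.0563), and that of Mamdc4 without PND 10 replicate 3 (0.0197).

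The PND 10 samples differed among themselves in this group of genes. Replicate 5 was the lowest and replicate 3 the highest of the 6 PND 10 samples for all of Prap1, Apoc2, Anpep, Mamdc4, Lgmn and ILMN_1368735. Replicate 5 was at the same time the highest PND 10 sample for Car4, Slc9a2, Slc39a4 and Cyp3a9, but not for Car1 or Slc26a3, whose highest PND 10 sample was replicate 6. Few members of the wider lists were called: against 0.644% of all probes that fell and 54.6% of named genes with a change below 0, 1 of 18 brush border digestion genes fell (median −0.19, 13 below 0), 1 of 19 genes of lipid uptake and export fell (median −0.01) and 1 of 15 genes of lysosome-rich enterocyte endocytosis fell (median −0.14, 13 below 0), and no member of the 3 lists rose. In a bulk sample of this kind, fewer cells of a type and less RNA per cell cannot be told apart.

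Mt1, metallothionein 1, a small protein that binds zinc and copper, was lower in every PND 15 sample. Its signals were 3046, 3664, 1739, 834, 2698 and 5274 in PND 15 colon, against 13935, 9869, 5746, 17843, 12998 and 18521 in PND 10 colon. The groups did not overlap, although replicate 6 of PND 15 and replicate 3 of PND 10 came near each other, and the fall was 2.31 ± 0.43 on the log2 scale (SE, n = 6 each; limma adjusted p = 3.7e-04). The mean signal was 16055 on PND 7, 13152 on PND 10, 2876 on PND 15 and 3067 on PND 22, so that the later ages of these 4 both lay below the earlier ones. Whether the probe also binds transcripts of related metallothioneins was not tested. Metallothionein genes are induced by the zinc-sensing factor MTF-1 through metal response elements, and the 250 bases before the start site of Mt1 (RefSeq, GRCr8, chr19:10832976-10833225, minus strand) are printed 5′ to 3′ because they hold 6 separate matches to the core of this element, TGCGCNC or TGCACNC on either strand, in capitals.
Mt1: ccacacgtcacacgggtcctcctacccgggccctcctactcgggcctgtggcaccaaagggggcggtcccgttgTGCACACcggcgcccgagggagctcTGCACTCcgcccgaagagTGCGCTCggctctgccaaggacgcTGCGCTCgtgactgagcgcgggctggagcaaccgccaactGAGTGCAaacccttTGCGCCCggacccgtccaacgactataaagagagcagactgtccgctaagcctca
At least 1 match stood in 20.6% of 33469 rat promoters of this length, and at least 6 separate matches in 8 of them (0.0239%). A match is a description of these letters and no measurement of binding. The zinc importer Slc39a4, chosen after its values were seen, moved the other way in the same samples, as given above. Mt1 was also listed among glucocorticoid-responsive genes. The part of zinc or of glucocorticoids in the fall of Mt1 was not tested.

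Stearoyl-CoA desaturase (Scd, chr1:253218968-253232101), which makes monounsaturated fatty acids, had 1916, 3162, 2255, 1059, 2543 and 4515 in PND 15 colon, against 154, 754, 258, 1121, 706 and 1397 in PND 10 colon. Only replicate 4 of PND 15 lay within the PND 10 range. The rise was 2.05 ± 0.28 (SE, n = 6 each; limma adjusted p = 1.6e-06), or 4.14-fold, after means of 106 on PND 7 and before 1437 on PND 22. Thrsp, a regulator of fat synthesis that responds to thyroid hormone, had 80.9 to 399 in PND 15 against 53.8 to 111 in PND 10. It rose by 1.36 ± 0.22 (limma adjusted p = 2.3e-05), a size that rests partly on PND 10 signals below the detection limit. The calls of Scd and Thrsp were both lost in a fit of the 12 samples alone.

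Markers of fat cells moved with these genes. Of 16 adipocyte genes 3 rose and none fell, against 1.3% of all probes that rose. The 3 were Scd itself, Cfd (complement factor D, by 0.64) and Adipoq (adiponectin, by 0.57). The summed signal of the 4 measured fat cell markers (Adipoq and Cfd among them) was 1524 to 3313 in PND 15 and 927 to 2091 in PND 10, and 1 of the 4 was detected in no sample. Cfd averaged 518 ± 149 in PND 15 and 334 ± 108 in PND 10 (SD, n = 6 each; limma adjusted p = 0.0093), and Adipoq 153 ± 47.1 in PND 15 and 101 ± 24.4 in PND 10 (limma adjusted p = 0.0047). Both calls were lost without PND 15 replicate 2, 3 or 6 or PND 10 replicate 1, 3 or 5, and that of Cfd also without PND 10 replicate 6 (highest adjusted p from limma 0.0448 for Cfd and 0.0377 for Adipoq). A fit of the 12 samples alone and 75th percentile scaling each ended both calls too. Over all settings the highest adjusted p from limma was 0.107 for Cfd and 0.141 for Adipoq. The part of fat tissue in the rise of Scd and Thrsp was not tested.

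**Figure D2:**
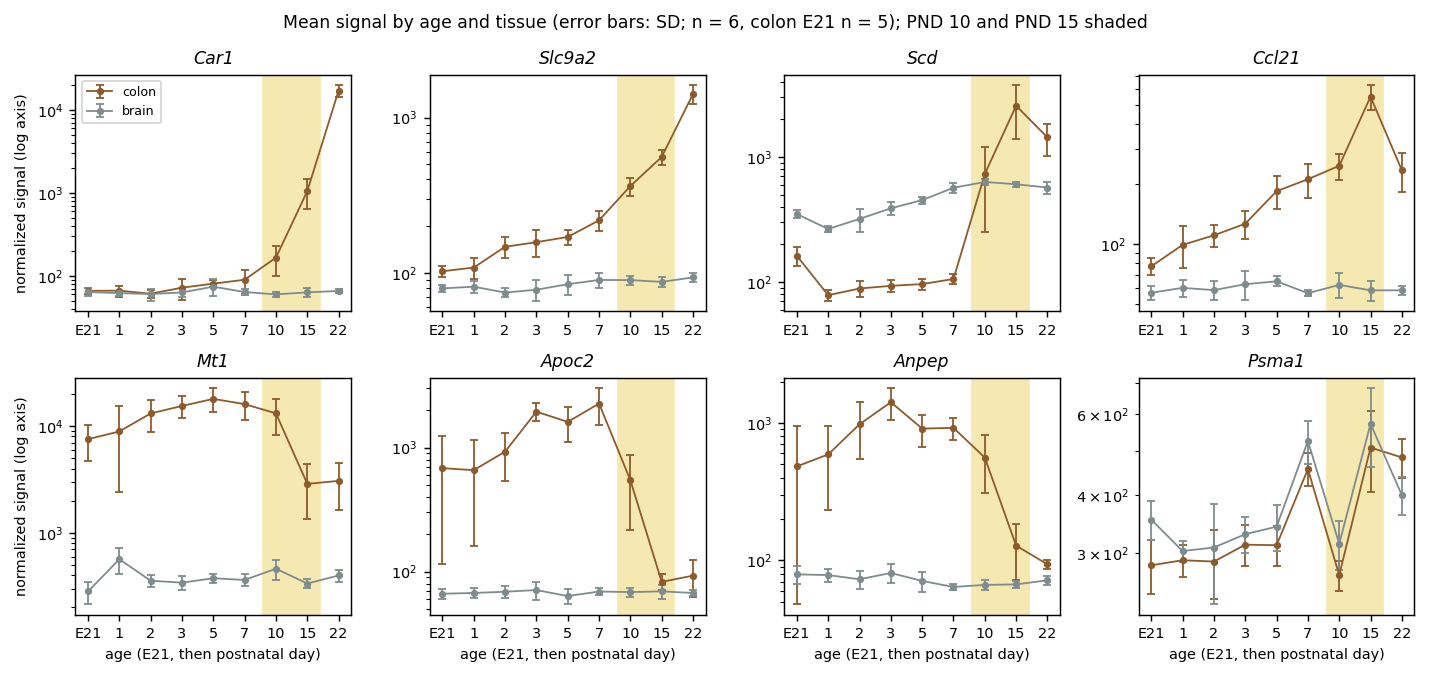
Mean normalized signal (log axis) of 8 genes at 9 ages, embryonic day 21 (E21) and PND 1 to 22, in colon and in brain, with SD as error bars (n = 6, and 5 for colon at E21); PND 10 and PND 15 are shaded. In colon, the mean of Car1 was 166 on PND 10, 1054 on PND 15 and 17125 on PND 22, while Ccl21 and Scd had their highest means on PND 15, and brain stayed near the detection limit for Car1, Ccl21, Apoc2 and Anpep.

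2 chemokines rose, both without overlap between the ages. Ccl20, which draws CCR6-bearing lymphocytes and dendritic cells to epithelium over lymphoid follicles, had 669, 1295 and 2023 in PND 15 against 448, 502 and 637 in PND 10. Ccl21, which guides naive T cells and dendritic cells along lymph vessels and into lymphoid tissue, had 463, 532 and 665 in PND 15 against 196, 244 and 296 in PND 10. The rises were 1.28 ± 0.23 for Ccl20 (limma adjusted p = 1.7e-04) and 1.15 ± 0.14 for Ccl21 (limma adjusted p = 9.9e-08; SE, n = 6 each). Their courses differed afterwards, since the mean of Ccl20 was 1272 on PND 22 and that of Ccl21 was 234. Ccl20 is a known target of the factor NF-kappa B, and the 250 bases before its start site in the promoter table (RefSeq, GRCr8, chr9:91836909-91837158, plus strand), of which the last 20 lie inside the gene as the RefSeq gene table bounds it, are printed 5′ to 3′ because they hold 1 match to the kappa B motif, in capitals.
Ccl20: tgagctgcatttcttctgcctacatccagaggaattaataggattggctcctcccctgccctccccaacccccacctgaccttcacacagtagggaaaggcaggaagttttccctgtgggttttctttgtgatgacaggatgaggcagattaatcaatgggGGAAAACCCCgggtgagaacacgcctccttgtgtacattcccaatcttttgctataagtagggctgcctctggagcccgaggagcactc
The motif was searched on both strands and stood in 6.33% of the 33469 promoters.

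Few other immune genes were called. Psmb9, an interferon-inducible subunit of the immunoproteasome, which cuts peptides for antigen presentation, had 289.8 to 376 in PND 15 against 161 to 243 in PND 10 and rose by 0.65 ± 0.11 (limma adjusted p = 7.7e-05). It was the sole called member of 20 antigen presentation genes, against 1.70% of all named genes that were called. Ms4a1, which encodes the B cell marker CD20, was detected in 4 of 6 PND 15 samples (58.8 to 102) and 0 of 6 PND 10 samples (55.3 to 62.1). Its rise was called (limma adjusted p = 0.0055), with no size given, since both ages held undetected signals. The call was lost without PND 15 replicate 1, 4 or 6 or PND 10 replicate 1, 2, 3 or 5 (highest adjusted p from limma 0.0385). A fit of the 12 samples alone ended it too, and over all settings the highest adjusted p from limma was 0.0751. No member of the lists of 26 T cell and NK cell genes, 22 macrophage and dendritic cell genes or 26 interferon response genes passed in limma, and 5, 2 and 3 of them had an unadjusted p under 0.05, against 14.8% of all named genes (13.9% of all probes). The summed signal of 6 leukocyte markers was 582 to 969 in PND 15 and 485 to 664 in PND 10, and the part of leukocyte number in these rises was not tested.

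Several peptides and receptors of the gut's endocrine cells and nerves rose. Scg2 (secretogranin II, a secretory granule protein) had 203, 274 and 312 in PND 15 against 118, 143 and 172 in PND 10, a rise of 0.92 ± 0.11 (SE, n = 6 each; limma adjusted p = 2.1e-07). Sst (somatostatin, an inhibitory peptide of D cells and enteric neurons) had 245, 314 and 378 in PND 15 against 151, 183 and 209.9 in PND 10, a rise of 0.79 ± 0.15 (limma adjusted p = 5.5e-04). They were the 2 called members of 18 enteroendocrine genes, against 1.70% of all named genes that were called. The median change of the 18 was 0.11, and −0.01 from PND 15 to PND 22. The mean signal of Scg2 was 144 on PND 10, 273 on PND 15 and 106 on PND 22. That of Sst was 182, 315 and 145 at the same ages. Scg2 rose in brain too, by 0.49 (limma adjusted p = 0.0017), and its colon minus brain difference of 0.43 was not called (limma adjusted p = 0.228).

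3 further genes, which are in neither of the neural lists described next, were chosen after their values were seen. Grp (gastrin-releasing peptide, which is found in enteric neurons) had 286, 378 and 418 in PND 15 against 145, 200.3 and 293 in PND 10, and rose by 0.85 ± 0.14 (limma adjusted p = 3.1e-05). Galr2, a galanin receptor, rose by 0.48 ± 0.10 (148 to 229 in PND 15, 90.6 to 145 in PND 10; limma adjusted p = 0.0015), and Htr3b, a subunit of the serotonin-gated ion channel, by 0.36 ± 0.08 (limma adjusted p = 0.0064). The call of Galr2 was lost without PND 15 replicate 5 (0.0122), and that of Htr3b without PND 15 replicate 1, 3, 4, 5 or 6 or PND 10 replicate 1, 3, 5 or 6 (0.0264). Both were also lost in a fit of the 12 samples alone and with a replicate block in that fit. For Galr2 the highest adjusted p from limma over all settings was 0.0327. The sodium channel Scn7a, known from Schwann cells and glia, had 221 to 427 in PND 15 against 142 to 203 in PND 10. It rose by 0.81 ± 0.14 (limma adjusted p = 6.2e-05). Its call was lost in a fit of the 12 samples alone and with a replicate block in that fit (highest adjusted p from limma 0.0160). Its mean signal was 172 on PND 10, 310 on PND 15 and 124 on PND 22.

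The wider neural lists gave no call. None of 28 enteric neuron genes passed, with a median change of 0.21 and 23 above 0, and none of 8 enteric glia genes, with a median of 0.15 and all 8 above 0, while 8 of the 28 and 2 of the 8 had an unadjusted p under 0.05 in limma, against 14.8% of all named genes. The neuropeptide Cartpt came nearest, at 379 ± 109 in PND 15 and 244 ± 60.3 in PND 10 (SD, n = 6 each; limma adjusted p = 0.0218). From PND 15 to PND 22 the median change was −1.29 for the 28 enteric neuron genes and −0.13 for the 8 enteric glia genes. Summed over 3 glial markers, the signal was 397.8 to 518 in PND 15 and 285 to 393 in PND 10, which did not overlap. Over 4 neuronal markers it was 3303 to 4723 in PND 15 and 2158 to 4419 in PND 10. Their part in the rises of Scg2, Sst, Grp and Scn7a was not tested.

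Enzymes for foreign compounds and steroids included some of the clearest rises. Cyp3a9, a rat cytochrome P450 that oxidizes steroids and drugs, had 775, 1222 and 1842 in PND 15 against 275, 487 and 771 in PND 10, without overlap, and rose by 1.33 ± 0.16 (SE, n = 6 each; limma adjusted p = 1.0e-07), with a mean of 3421 on PND 22. Cyp2j3, which makes epoxides of arachidonic acid, averaged 404 ± 48.0 in PND 15 and 269.5 ± 29.6 in PND 10 (SD), a rise of 0.58 (limma adjusted p = 0.0017). Cyp2d1 rose by 0.52 (limma adjusted p = 0.0021), and its call was lost without PND 15 replicate 5 (0.0170). These were the 3 called members of 40 genes of this list, whose median change was 0.05. Of all named genes 1.70% were called. Cyp3a9 rose in brain too, by 0.77 (limma adjusted p = 2.5e-10), and its colon minus brain difference of 0.56 was not called (limma adjusted p = 0.0941).

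Some genes of growth and of young connective tissue fell. Dlk1, a Delta-like membrane protein of fetal mesenchyme, averaged 110.2 ± 21.0 in PND 15 and 195 ± 46.0 in PND 10 (SD, n = 6 each), a fall of 0.81 ± 0.17 (SE; limma adjusted p = 0.0022), and its mean had been 293 on PND 7 and was 63.0 on PND 22. Fbn2 (fibrillin 2, of microfibrils in developing tissue) had 178 to 245 in PND 15 against 329 to 373 in PND 10 and fell by 0.70 ± 0.14 (limma adjusted p = 7.3e-04). Vcan (versican, a large matrix proteoglycan) had 151 to 225 in PND 15 against 232 to 367 in PND 10 and fell by 0.71 ± 0.15 (limma adjusted p = 0.0026). Vcan fell in brain too, with a change of −0.55 (limma adjusted p = 7.8e-06), and its colon minus brain difference was not called (limma adjusted p = 0.885). Igf2r, the receptor that clears IGF2 and sorts lysosomal enzymes, fell by 0.34 ± 0.08 (limma adjusted p = 0.0032).

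Matrix genes did not fall as a group. Of 34 collagen and matrix genes 2 fell (Fbn2 and Vcan), against 0.644% of all probes that fell, and none rose. Their median change was 0.06, with 24 above 0. Mgp, matrix Gla protein, an inhibitor of calcification that was not in that list, had 2084 to 2894 in PND 15 against 1109 to 1826 in PND 10. It rose by 0.81 ± 0.19 (limma adjusted p = 0.0071), and its mean signal on PND 22 was 1104. In brain it rose by 0.53 (limma adjusted p = 3.0e-04), and the colon minus brain difference was not called (limma adjusted p = 0.778). Ptn (pleiotrophin, a heparin-binding growth factor) rose by 1.05 ± 0.15 in colon (limma adjusted p = 4.4e-06) and by 1.15 in brain. Its colon means were 264 on PND 7, 126 on PND 10, 265 on PND 15 and 98.6 on PND 22. Tnnc1 (troponin C of slow and cardiac muscle) fell by 0.78 ± 0.14 (limma adjusted p = 3.2e-04). Single samples ended the calls of Mgp (PND 15 replicate 1, 3, 4 or 6, PND 10 replicate 1, 3, 5 or 6; highest adjusted p from limma 0.0269), Dlk1 (PND 15 replicate 5 or 6, PND 10 replicate 1 or 4; 0.0127), Vcan (PND 15 replicate 6, PND 10 replicate 1; 0.0147) and Igf2r (PND 15 replicate 1 or 5, PND 10 replicate 1 or 6; 0.0172).

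Cell cycle and DNA replication was the list with the most falls. Of 30 measured members 7 fell and none rose, against 0.644% of all probes that fell. Of the 30 changes 29 were below 0, against 54.6% of all named genes, with a median of −0.33. The 7 were Ccna2 (cyclin A2, which drives S phase), the replicative helicase subunits Mcm2, Mcm3 and Mcm6, Gmnn (geminin, which blocks a further licensing of origins), Cdca8 (borealin of the chromosomal passenger complex) and Bub1b (of the spindle checkpoint). Ccna2 had 207, 265 and 315 in PND 15 against 301, 374 and 445 in PND 10, a fall of 0.50 ± 0.11 (SE, n = 6 each; limma adjusted p = 0.0019). The 2 ages overlapped for Ccna2 by 1 PND 10 sample, replicate 5.

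Mcm6 had 384, 464 and 575 in PND 15 against 527, 614 and 760.2 in PND 10 and fell by 0.45 ± 0.11 (limma adjusted p = 0.0057), and Mcm2 had 198 to 290.4 in PND 15 against 264 to 381 in PND 10 and fell by 0.46 ± 0.11 (limma adjusted p = 0.0096). Origin-licensing genes are known targets of E2F factors, and the 250 bases before the start site of Mcm6 (RefSeq, GRCr8, chr13:42404353-42404602, minus strand) are printed 5′ to 3′ because they hold a pair of overlapping matches to the E2F motif TTTNGCGC, 1 on each strand, in capitals.
Mcm6: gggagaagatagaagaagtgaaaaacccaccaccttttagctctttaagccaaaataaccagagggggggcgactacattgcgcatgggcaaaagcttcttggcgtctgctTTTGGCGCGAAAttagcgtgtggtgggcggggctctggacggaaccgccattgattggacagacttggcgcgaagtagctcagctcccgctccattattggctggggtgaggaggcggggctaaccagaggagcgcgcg
The motif stood in 1.04% of all 33469 promoters and in 7 of the 24 promoters of list members that the table holds (29.2%), 2 of them among the 6 promoters of members that fell.

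Further genes of mitosis and replication stood among the largest named falls, which were picked only among called probes without overlap between the ages. Kif22 (a kinesin of chromosome arms) fell by 0.52, Nuf2 (of the outer kinetochore) by 0.51 and Tpx2 (of spindle assembly) by 0.50. Rfc3 and Rfc5 (of the clamp loader) fell by 0.49 each. In this order the limma adjusted p were 2.3e-04, 8.9e-04, 0.0012, 3.8e-05 and 1.8e-05. Kif22 had 244 to 346 in PND 15 against 369 to 474 in PND 10. Cdca7, a regulator of DNA methylation in dividing cells, fell by 0.55 (limma adjusted p = 0.0014). Its second, dimmer probe had a change of 0.19 (limma adjusted p = 0.276), and the call was lost without PND 15 replicate 6 (0.0122). The mean of its probes and a fit of the 12 samples alone each ended it too. That fit also ended the calls of Nuf2, Tpx2 and Rfc5 (limma adjusted p = 0.0224, 0.0126 and 0.0107). Kif22 and Rfc3 kept theirs under every setting run for single genes.

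The number of falls in the cell cycle list rested on few samples. It was 1 without PND 15 replicate 5, 1 without PND 10 replicate 1, 2 without PND 15 replicate 6, 3 without PND 15 replicate 4, 3 without PND 10 replicate 3, 4 without PND 10 replicate 6, and 6 to 8 without any other sample. In the fit of the 12 samples alone it was 1. Mcm2 lost its call without PND 15 replicate 3, 4, 5 or 6 or PND 10 replicate 1, 2, 3, 4 or 6 (highest adjusted p from limma 0.0451), Mcm6 without PND 15 replicate 4, 5 or 6 or PND 10 replicate 1, 3 or 4 (0.0309), and Ccna2 without PND 15 replicate 5 or PND 10 replicate 1 (0.0134). Mcm2, Mcm6 and Ccna2 also lost their calls in the fit of the 12 samples alone. Over all settings the highest adjusted p from limma was 0.0516 for Mcm6 and 0.0248 for Ccna2. In brain, 20 of the 30 members fell between the same ages and none rose, against 3.84% of all probes that fell there, with a median of −0.46. The change of 1 member differed between the tissues, against 1.25% of all probes.

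**Figure D3:**
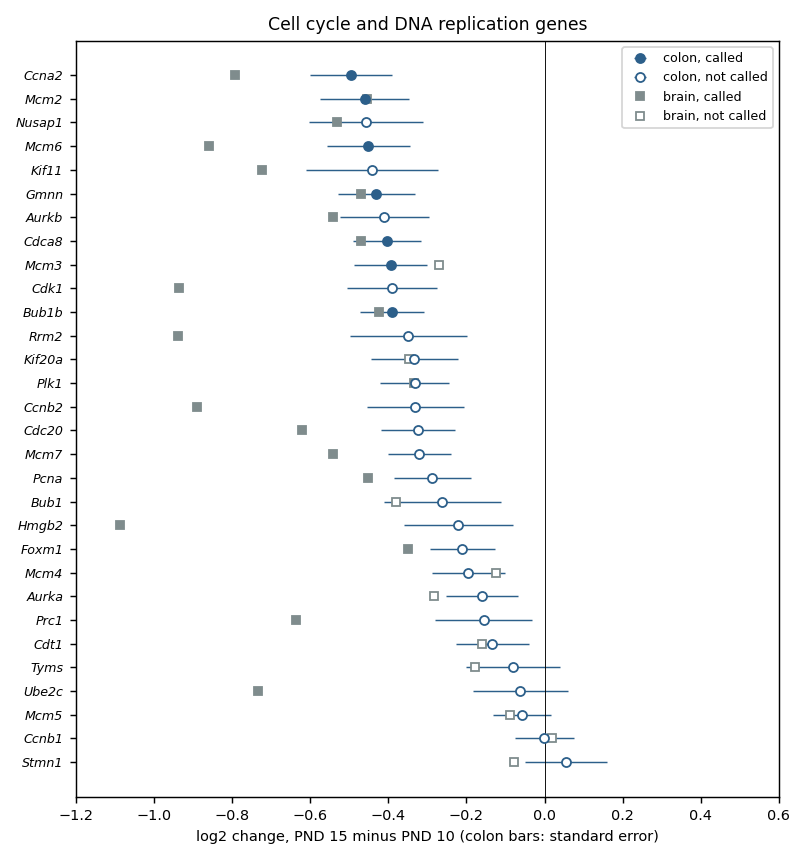
Log2 change, PND 15 minus PND 10, of the 30 measured cell cycle and DNA replication genes, with circles and bars for colon (change and standard error, n = 6 each) and squares for brain; filled symbols passed the test at an adjusted p under 0.01. The reader should see 29 of 30 colon circles below 0, 7 of them filled, and 20 filled squares.

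The comparison with brain asked which changes differed between the tissues. In brain, 1753 probes (7.78%) were called between the same ages, 887 (3.94%) higher and 866 (3.84%) lower in PND 15. Of the 437 probes called in colon, 258 were called in the same direction in brain (59.0% of the colon calls and 14.7% of the brain calls), and 1 in the opposite direction. The difference between the colon and the brain change was called for 281 probes (1.25%), 128 above 0 (0.568%) and 153 below 0 (0.679%). Both the colon change and the difference were called for 30 probes (0.133%), of which 18 rose and 12 fell in colon.

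Among those 30 were Car1, Slc26a3, Slc9a2, Slc39a4, Scd, Ccl20 and Ccl21, which rose, and Apoc2, Prap1, Anpep, Mamdc4 and Lgmn, which fell. The differences of Thrsp and Adipoq were not called (limma adjusted p = 0.0383 and 0.0174). The colon minus brain difference was 2.57 ± 0.22 for Car1, 2.11 ± 0.30 for Scd, 1.29 ± 0.24 for Ccl20 and 1.24 ± 0.16 for Ccl21 among the rises (SE, n = 6 in each of 4 groups; limma adjusted p = 2.2e-15, 2.4e-07, 1.9e-04 and 2.1e-08). It was −2.39 ± 0.42 for Apoc2 and −2.08 ± 0.37 for Anpep among the falls (limma adjusted p = 4.3e-05 and 5.2e-05), and for Prap1, which was not detected in PND 15 colon, it was below 0 with no size given (limma adjusted p = 6.3e-05). In brain the mean signals of Car1, Ccl20, Ccl21, Apoc2, Anpep and Prap1 were 55.7 to 69.4 in PND 15 and 55.8 to 68.4 in PND 10, at or near the detection limit, so that a brain change could hardly be measured and their differences restate the colon change. Scd was measured in brain, with means of 606 in PND 15 and 632 in PND 10. For Mt1 it was −1.87 ± 0.46 (limma adjusted p = 0.0090), and this call was lost under 12 of 25 alternatives. Car4 behaved otherwise: it rose in brain too, by 0.91, and its difference of 0.28 ± 0.30 was not called (limma adjusted p = 0.866). Vmp1, a membrane protein of autophagy chosen after its values were seen, had 838 to 1192 in PND 15 colon against 1303 to 1656 in PND 10 colon, and its fall of 0.48 ± 0.09 (limma adjusted p = 2.2e-04) differed from the brain change by −0.60 ± 0.10 (limma adjusted p = 3.2e-05).

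**Figure D4:**
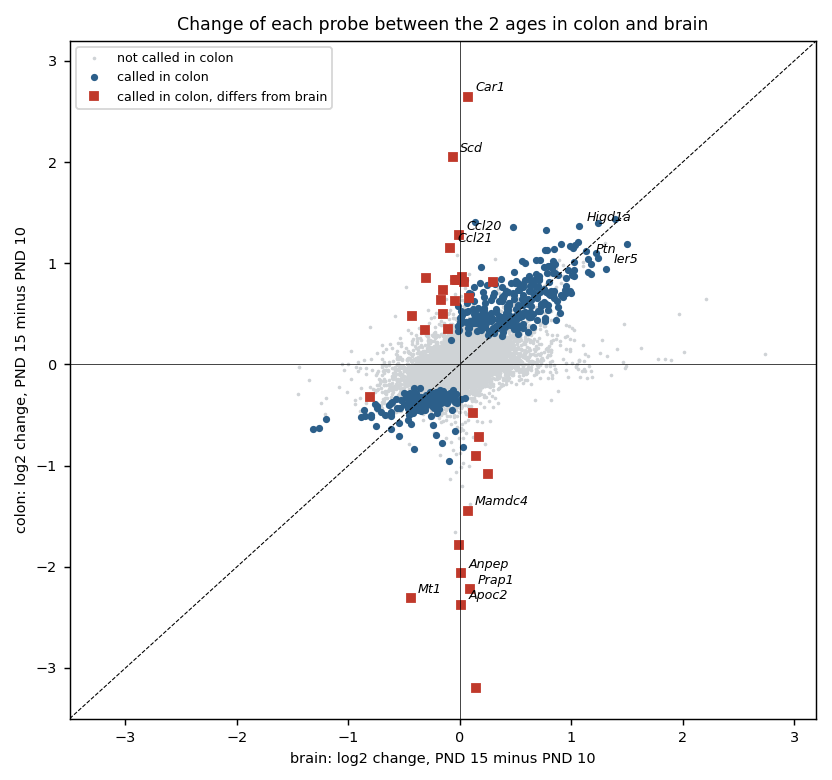
Log2 change, PND 15 minus PND 10, of each of the 22523 probes in colon (vertical axis) and brain (horizontal axis); the dashed line marks equal changes. Blue points are called in colon and red squares are called in colon and for the difference between the tissues, and the reader should see Car1, Scd, Ccl20, Ccl21, Apoc2, Prap1 and Anpep near 0 on the brain axis, while many other rises lie near the dashed line.

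Many of the rises were shared by the tissues. Of the 292 probes that rose in colon, 184 rose in brain as well (63.0%), and the median brain change of the 292 was 0.48. Among the named ones, Higd1a, a mitochondrial protein of the response to low oxygen, had 329 to 457 in PND 15 colon against 121 to 204 in PND 10 colon, a rise of 1.37 ± 0.13 (SE, n = 6 each; limma adjusted p = 4.7e-10), and rose by 1.07 in brain. The proteasome subunit Psma1 had 370.2 to 672 in PND 15 colon against 235 to 293 in PND 10 colon and rose by 0.90 in colon and 0.85 in brain. The signalling adaptor Ywhag rose by 0.99 in colon and 0.85 in brain, the chaperone Hsp90aa1 by 0.80 in colon and 0.66 in brain, and the disulfide isomerase Pdia3 by 0.64 in both.

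These shared rises followed an uneven course over the ages. Over the 184 probes that rose in both tissues, the median level relative to PND 10 was 0.05 on PND 5, 0.51 on PND 7, 0.66 on PND 15 and 0.57 on PND 22 in colon, so that PND 10 lay below both of its neighbours. In brain the same probes had medians of 0.57 on PND 7, 0.64 on PND 15 and 0.47 on PND 22. Psma1, for example, averaged 456 on PND 7, 268 on PND 10, 508 on PND 15 and 483 on PND 22 in colon. The PND 10 samples enter each of these medians. The 184 probes were picked because PND 15 lay above PND 10 in both tissues, so that side was fixed beforehand. The same choice favours low PND 10 samples, and its part in the PND 7 medians was not tested. The probes that rose in colon and were not called in brain had colon medians of 0.16 on PND 7, 0.50 on PND 15 and 0.42 on PND 22. Probes without a gene symbol made up 59.6% of the colon rises, against 38.8% of all probes, and 127 of those 174 rose in brain.

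Ier5, an immediate early gene, was read differently by its probes. The probe with the higher mean over all colon samples rose by 0.95 in colon (limma adjusted p = 1.1e-08) and 1.32 in brain. The other probe had a colon change of 0.08 (limma adjusted p = 0.757). In PND 10 colon the rising probe was the dimmer, with a mean of 93.8 against 109. The chips and runs of the samples were not given in the sources used here, and their part in the shared rises was not tested. When PND 15 was set against the mean of PND 7 and PND 10, a comparison added after the data were seen, 767 probes were called, 310 of them among the 437, and the shares of rises among the calls were 47.9% and 66.8% for the 2 comparisons.

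**Figure D5:**
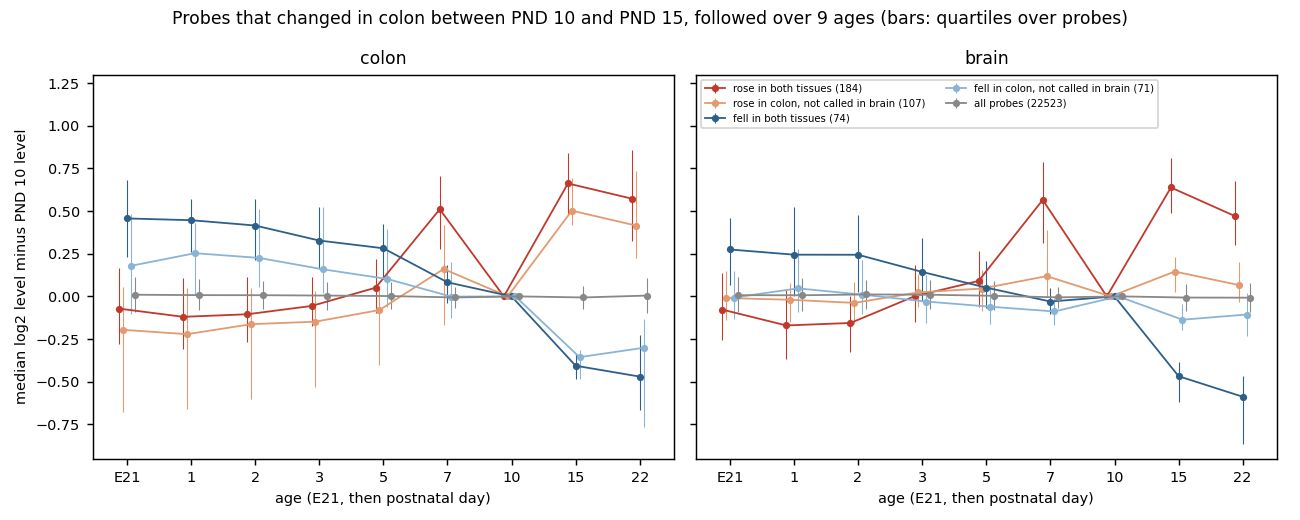
Median log2 level relative to PND 10 over the 9 ages, in colon (left) and brain (right), for probes called in colon between PND 15 and PND 10, split by whether brain changed as well; bars are quartiles over probes, and grey is the median of all 22523 probes. The 184 probes that rose in both tissues lie at 0.51 on PND 7 and 0.66 on PND 15 in colon, with PND 10 between them at 0 by construction.

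The genes of sialic acid and UDP-GlcNAc metabolism, which the study was built around, gave no call in this step. None of the 27 measured genes passed in limma, and 2 of the 27 had an unadjusted p under 0.05, against 14.8% of all named genes. Nearest was Neu1, the lysosomal sialidase that releases sialic acid from glycans, with 189, 310.4 and 351 in PND 15 colon against 315, 429 and 593 in PND 10 colon and a change of −0.64 ± 0.20 (SE, n = 6 each; limma adjusted p = 0.051). The exact permutation test of this 1 gene gave p = 0.00866, with no adjustment. Against the mean of PND 7 and PND 10, a comparison added after the data were seen, the changes of Neu1 (−0.71), Slc17a5 (−0.69), Npl (−0.87) and Renbp (−0.68) were called (limma adjusted p = 0.0049, 0.0039, 0.0072 and 0.0063). That comparison takes in the earlier step as well. From PND 7 to PND 10 their changes were −0.12, −0.70, −1.02 and −0.66, in the same order (limma adjusted p = 0.935, 0.0278, 0.0145 and 0.0531). Of 10 genes for release, transport and breakdown of sialic acid, 8 had changes below 0 (median −0.16), among them Npl, the sialic acid lyase, with −0.36 (limma adjusted p = 0.608) and the exporter Slc17a5 with −0.34 (limma adjusted p = 0.449). Of 6 genes for its synthesis and activation, 5 had changes above 0 (median 0.12), among them Gne, which starts the pathway, with 0.17 (limma adjusted p = 0.691). No change of a single gene in these 2 groups passed the test between PND 15 and PND 10.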

How the data were processed

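Colon and brain RNA of rat pups was amplified to biotin-labelled cRNA by the authors and hybridized to RatRef-12 BeadChips. The deposited signals are linear intensities with no normalization between arrays, and the detection p-values deposited beside them set each probe against the negative controls of its array. A further table holds the authors' quantile-normalized intensities and served as an alternative. The authors left out 1 colon sample of embryonic day 21, which was not used here.

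All 22523 probes were quantile normalized over both tissues, set to a floor of 1 and taken to log2 with limma 3.58.1 under R 4.3.3 (files were read by data.table, version 1.17.8). limma (lmFit, eBayes) fitted 1 mean per age over the 53 colon samples, so that all ages share the estimate of spread, and the contrast was PND 15 minus PND 10. A fit over both tissues gave the colon minus brain difference. p-values were adjusted by Benjamini-Hochberg over all probes and called under 0.01. Single genes were also set to a two-sided exact permutation test of the mean log2 signal. The array annotation gives a single gene symbol for 13793 probes (13337 symbols) and none for 8730, and 13752 of the named probes have a gene in the RefSeq table of GRCr8, whose coordinates and promoters are printed. A gene was read from its brightest probe over colon. Array annotation can be old. Precision is limited by how many arrays were run.

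The named genes were the 15 largest rises and falls of called, non-overlapping probes detected in all 6 samples of the age with the higher mean, the genes of sialic acid and UDP-GlcNAc metabolism, up to 3 called members of each of 46 lists (895 measured members) and the 4 largest differences from brain each way, and 14 marker lists were summed. Every gene called both in colon and for the difference from brain was added after the values were seen. The members, the lists and the rule were chosen with earlier results of these data known. Replicate numbers name samples only. Alternatives for the signals were quantile normalization within each tissue, 75th percentile scaling, normexp background correction (neqc, offset 16), the authors' values, detected probes alone and a floor of 16. Alternatives for the fit were trend and robust moderation, the samples of the 2 ages alone, a replicate block and the ordinary contrast. The ordinary contrast is an unmoderated t test of PND 15 minus PND 10 within the fit over the ages. It is not the authors' ANOVA, which tested across ages. Others were a minimum of 1.5-fold, a threshold of 0.05, the mean of a gene's probes and each sample left out. Added after the data were seen were the mean of PND 7 and PND 10 as the earlier age and the log2 array median as a covariate. Plots used Python 3.11.15 and matplotlib 3.10.9. The steps were tested on simulated data.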

Additional observations from a re-analysis of the deposited data

Results flagged for a closer look

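In 9 of the 174 groups of 6 samples examined over the 87 named genes, 1 sample lay far from the other 5 by Dixon's test, which chance flags in about 1 of 20 groups. In PND 15 colon these were Eno3 in replicate 5 (a signal of 544, others 211 to 271), Galr2 in replicate 5 (229.4, others 148 to 172), Nagk in replicate 5 (139.6, others 116 to 124), Pgm1 in replicate 2 (326.6, others 214 to 231), Psmb9 in replicate 6 (376.1, others 289.8 to 311) and Neu4 in replicate 6 (44.31, others 51.8 to 56.8). In PND 10 colon they were Slc26a3 in replicate 6 (288.8, others 156 to 190.2), Galr2 in replicate 6 (90.57, others 126 to 145) and Hk3 in replicate 6 (57.74, others 68.0 to 71.1). The lone Galr2 samples are the highest of PND 15 and the lowest of PND 10, and without PND 15 replicate 5 its adjusted p from limma was 0.0122. Their causes were not tested.

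For 21 named genes the colon change, PND 15 minus PND 10, differed from the brain change at an adjusted p under 0.01 in limma's interaction fit. Every gene called both in colon and for this difference was added to the named genes after the values were seen. The count of 21 was thus fixed by that choice. Over all 22523 probes the difference was called for 281 (1.25%), and both were called for 30 (0.133%). The colon minus brain difference on the log2 scale was above 0 for Car1 (2.569), Scd (2.11), Ccl20 (1.285), Ccl21 (1.242), Grp (1.149), Galr2 (0.9098), Slc39a4 (0.8845), Slc26a3 (0.8559), Cfd (0.8081), Scn7a (0.775), Slc9a2 (0.6645), Cib2 (0.6466), Psmb9 (0.5686) and Htr3b (0.4591). It was below 0 for Apoc2 (−2.389), Prap1 (−2.32), Anpep (−2.076), Mt1 (−1.866), Mamdc4 (−1.515), Lgmn (−0.8889) and Vmp1 (−0.6002). Prap1 and Mamdc4 were not detected in PND 15 colon, so their values are differences against signals within background. Of the 21, 10 kept the call under each of the 24 or 25 settings run for the differences, which leave out the 1.5-fold minimum, the 0.05 threshold, the block in the 12 samples and the mean of a gene's probes. Galr2 fell in brain, by 0.43 (limma adjusted p = 0.0032), while it rose in colon.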

How the results depend on the processing

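The 437 calls became 211 in a fit of the 12 samples alone, 284 with a replicate block in that fit and 177 at 1.5-fold or more. They became 1468 by the ordinary contrast at an unadjusted p under 0.01, 823 at an adjusted p under 0.05 and 767 against the mean of PND 7 and PND 10. In the same order of settings, rises were 160 in the 12 samples, 154 at 1.5-fold, 751 by the ordinary contrast and 481 at 0.05. Falls over all these settings were 51, 80 (block), 23, 717, 342 and 400. The 281 differences between tissues became 147 under 75th percentile scaling and 1050 by the ordinary contrast. They became 513 at 0.05 and 940 against the mean of the earlier ages. Without single samples the calls were 268 to 483, the rises 207 to 325, the falls 61 to 164 and the differences 230 to 279. The share of rises, 66.8%, was 87.0% at 1.5-fold and 51.2% by the unadjusted ordinary contrast. It was 47.9% against the mean of PND 7 and PND 10 and 77.2% without PND 15 replicate 6. The other settings gave 381 to 513 calls, with 442 for a replicate block over all colon samples, and 75th percentile scaling moved the median change of all probes to 0.05 (−0.01 before). Samples sharing a replicate number correlated in their deviations by −0.15 to 0.33, above 0.1 for 4 of the 6 numbers, and 5 of the 12 samples were nearest their own number. Since the labels give the numbers no meaning and not every pair passed 0.1, they were not taken as pairs.

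Of 60 called named genes 27 kept the call under each of the 24 to 27 settings run for single genes, which leave out the 1.5-fold minimum and the 0.05 threshold, and none of the 60 changed sign there. The fit of the 12 samples alone ended 28 of the 60 calls, the block in that fit 14, 75th percentile scaling 9, normexp correction 9 and the array median as a covariate 5. Beside genes for which this is stated above, the 28 held Cyp2d1, Igf2r, Hsp90aa1, Lgmn, Mamdc4, Eno3, Myl1, Mrs2, Tm7sf2 and Cib2. Of the 27 sialic acid and UDP-GlcNAc genes, none of them called, Neu1 passed the ordinary contrast at an unadjusted p under 0.01. Against the mean of PND 7 and PND 10, which takes in the earlier step as well, 4 of these genes passed. The sign turned, for changes near 0 that were not called, for Neu4 (0.063 under 75th percentile scaling, −0.042 to 0.030 without 1 sample, above 0 without PND 15 replicate 6), Nans (−0.046 against the mean of PND 7 and PND 10), Gfpt2 (0.079 under 75th percentile scaling, −0.047 to 0.028 without 1 sample, 0.0075 to 0.028 for the 5 that turned it), Uap1 (−0.014 under 75th percentile scaling, −0.026 to 0.12 without 1 sample, below 0 without PND 15 replicate 5) and Gpi (−0.083 to 0.016 without 1 sample, above 0 without PND 15 replicate 4). The causes were not tested. A block by chip was not run, since no chip was named in the sources used here, and below a normalized signal of about 66.3 changes are hardly measured.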

Other observations

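Of 18 measured genes of cholesterol synthesis 2 fell and none rose in colon, against 0.644% of all probes that fell, and 15 changes were below 0 (median −0.14), as were 54.6% of all named genes. Acat2, a thiolase that makes acetoacetyl-CoA, averaged 836 ± 87.4 in PND 15 and 1156 ± 93.6 in PND 10 (SD, n = 6 each), without overlap, a fall of 0.47 (limma adjusted p = 3.8e-04). Tm7sf2, a sterol reductase, averaged 126 ± 26.2 in PND 15 and 185 ± 23.9 in PND 10 (limma adjusted p = 6.6e-04), and its second probe had a change of −0.22 (limma adjusted p = 0.428). Of 14 skeletal muscle genes 2 rose, against 1.3% of all probes that rose. The 2 were Eno3 (enolase 3, by 0.96) and Myl1 (a myosin light chain, by 0.43). The summed signal of 4 skeletal muscle markers was 1158 to 1509 in PND 15 and 1173 to 1550.1 in PND 10. The call of Myl1 was lost without PND 15 replicate 1, 4 or 6 or PND 10 replicate 1 (highest adjusted p from limma 0.0172). Among the 15 largest named falls were also Cst6 (cystatin 6, a protease inhibitor, by 0.61), Mrs2 (the mitochondrial magnesium channel, by 0.51) and Atraid (by 0.48), of which Atraid lost its call without PND 15 replicate 6 (0.0169).

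Of the 46 lists 28 held no called gene. An unadjusted p under 0.05 was reached by 14.8% of all named genes in limma, and 54.6% had a change below 0. Among the lists without a call, 16 of 18 endothelial genes had changes below 0 (median −0.11, 3 with an unadjusted p under 0.05 in limma), as had 26 of 35 genes of the mitochondrial respiratory chain (median −0.06, 9 falls and 1 rise with an unadjusted p under 0.05). Of 20 immediate early genes 17 had changes above 0 (median 0.13, 3 rises and 1 fall with an unadjusted p under 0.05). The step to PND 15 was larger than most earlier steps in colon by its count of calls (437 probes, against 841 from embryonic day 21 to PND 1, 73 from PND 1 to PND 2, 0 from PND 2 to PND 3, 3 from PND 3 to PND 5, 272 from PND 5 to PND 7 and 251 from PND 7 to PND 10), and 4145 probes were called from PND 15 to PND 22.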
